A study of Mus musculus with 12 samples.

Results

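The comparison described here is that of mouse spleen T cells co-cultured for 48 h with partner cells carrying a short hairpin against Fabp7 (labelled Res_shFabp7) and T cells co-cultured for 48 h with the control partner (Res_ctrl). It takes in 6 of the study's 12 libraries, 3 per group, which were picked by their labels. The comparison itself was chosen with earlier results of these data known. It covers all 16945 of 53762 gene symbols with enough reads to be tested. The other 6 libraries are T cells after 24 h with the same partners, and their values are set beside the 48 h values below. The labels give no strain, age or genotype of the mice; T cells and partners in all groups were kept in RPMI-1640 with heat-inactivated serum, penicillin and streptomycin, and the groups differed in partner and time. The study asked which T cell genes differ with the partner, in work on fatty acid binding proteins and ferroptosis of cancer cells. The labels used here do not say what Res stands for, how many hairpins were used, how the T cells were activated, or how they were separated from their partners.

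Fabp7 encodes a small cytosolic carrier of long-chain fatty acids. T cells that receive antigen receptor and co-stimulatory signals grow before and while they divide: they assemble ribosomes, make polyamines and nucleotides, fold and turn over more protein, switch to glycolysis and release cytokines. Cytokines such as interferon gamma then act back on the cells, in part through IRF1, to raise guanylate binding proteins and antigen presentation genes. A culture of T cells holds other spleen cells and partner cells to a degree that bulk RNA does not show, and here fewer cells of a type and less RNA per cell cannot be told apart.

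The 48 h libraries held 33.97 to 36.18 M counts with the control partner and 34.56 to 40.64 M with the shFabp7 partner, so that 3 counts, the most that a count of 0 allows, came to between 0.0713 and 0.0849 CPM (counting error only). Levels are CPM, the read counts of a gene scaled to a common library size after TMM scaling, with the 3 libraries of a group given in the order of their replicate numbers. A number in brackets after a gene is its log2 fold change at 48 h, shFabp7 over control partner, with its standard error (SE) after the ± sign, and rose or fell is written only of genes past an adjusted p of 0.05. No pair of replicates agreed within counting noise, and the control replicate 1 stood apart from the others of its group, with a chi-square per degree of freedom of 13.5 and 14 against replicates 2 and 3, where the other pairs gave 4.23 to 5.49. In a multidimensional scaling of the 6 libraries the first dimension, with 29.4% of the variance, separated the partners. Nothing in the labels says that replicates were separate cultures or animals, so p-values measure the spread between these libraries, which may be technical. The 12 T cell markers summed to between 2810 and 2880 CPM with the control partner and between 2760 and 2880 CPM with the shFabp7 partner, and both Cd4 and Cd8a were present in every library.

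Fabp7 itself, the gene targeted in the partner cells, had 3, 1 and 1 counts with the control partner and 0, 0 and 0 counts with the shFabp7 partner, all at or under the limit that a count of 0 allows, so these T cell libraries do not check the knockdown. Among the 9 Fabp genes in the table, Fabp5, the carrier that activated lymphocytes are known to express, was the one with more than a trace of reads. It had 39.2, 40.3 and 39.8 CPM with the control partner and 55.9, 57.8 and 57.6 CPM with the shFabp7 partner. The groups did not overlap, and Fabp5 was higher by 0.52 ± 0.09 on the log2 scale (edgeR quasi-likelihood test with Benjamini-Hochberg adjustment over all genes, adjusted p = 7.16e-05). Fabp3 had between 7 and 17 counts in each library and did not pass (0.34 ± 0.59, edgeR adjusted p = 0.718), and Fabp2, Fabp6 and Fabp9 had no count in any of the 6 libraries.

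At an adjusted p of 0.05, 5352 genes differed between the partners, which is 31.6% of those tested; 3380 were higher with the shFabp7 partner (19.9%) and 1972 were lower (11.6%). Most of the differences were small. Their median size was 0.3152 on the log2 scale, 314 of the genes that rose and 448 of those that fell changed by at least 1.5-fold, and 75 and 160 by at least 2-fold. Called genes were more frequent where reads were many: by mean CPM, which counts long genes higher, with the genes in 5 classes of equal size, 4.49% of the lowest class and 55.5% of the highest passed, and in the highest 43.3% rose and 12.3% fell. In the next class 32.9% rose and 13.7% fell. Most members of each of the 43 lists described below lie in these 2 classes, except for integrated stress response targets, chemokines and the circadian clock. The shares of these classes, rather than those of all genes, are therefore the nearer background for a count of list members. By this measure the shares that rose were near or under the background for iron, ferroptosis, fatty acid binding and oxidation, and hypoxia genes. So were those for cytokine, co-stimulatory and inhibitory receptors, granule genes, lineage factors, NF-kB, T cell receptor signalling, G1 regulators, and BCL2 and p53 genes. Mitosis genes and amino acid transporters, with 14 of 28 and 6 of 12 higher, were little above it. The 3 libraries of each group did not overlap for 44.0% of all genes tested.

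**Figure D1:**
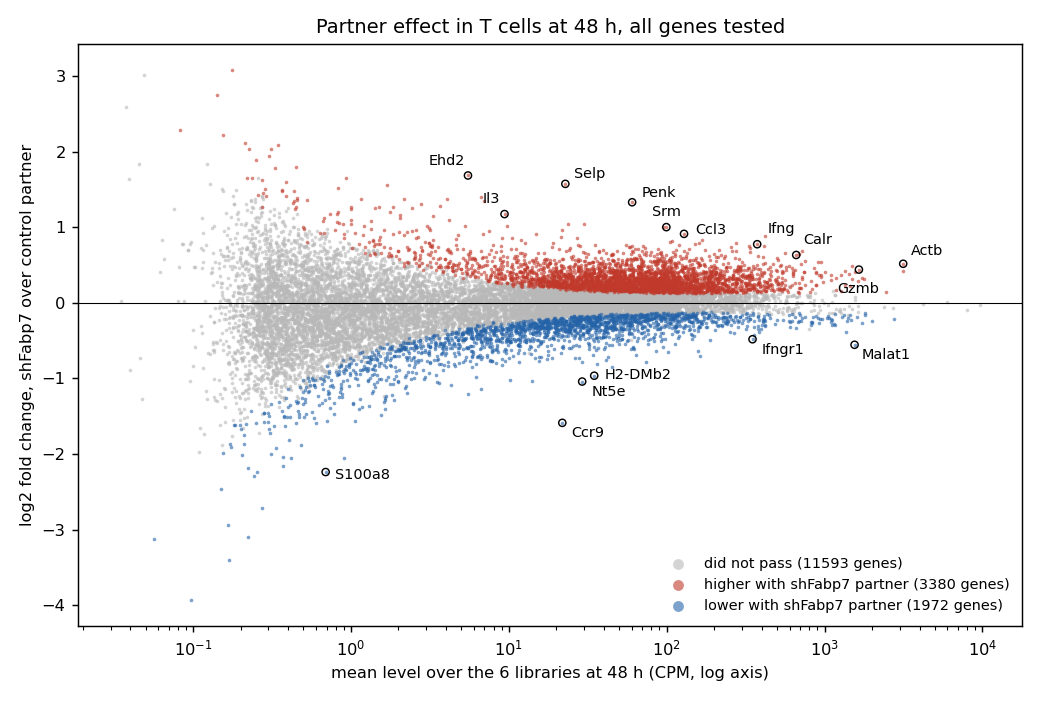
Each point is 1 of the 16945 genes tested, with its mean CPM over the 6 libraries at 48 h on a log axis and its log2 fold change, shFabp7 over control partner, on the vertical axis. Red points (3380 genes) and blue points (1972 genes) passed the test, grey points did not, and the genes named on the plot are described in the text.

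How the called genes split between higher and lower rested on the scaling. With TMM 63.2% of them were higher, and with RLE scaling 66.1% and in DESeq2 69.6%, but with upper-quartile scaling 39.9% and with library totals alone 40.5%. The shift behind this was smaller than most of the changes described below: library totals moved the median of all genes by -0.0843 on the log2 scale. A log2 fold change under about that size therefore has no direction of its own here, and list counts of 5 or more that library totals moved by more than 1.5 times are given with both values. Smaller list counts moved by at most 2 genes.

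**Figure D2:**
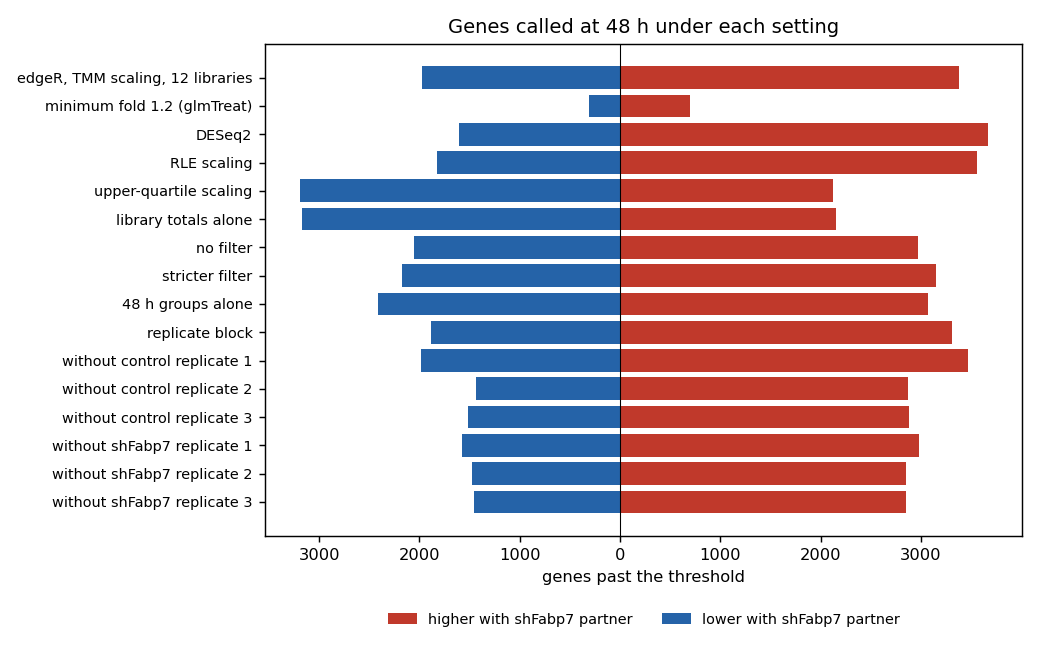
Bars give the number of genes past the threshold at 48 h under each setting, higher with the shFabp7 partner to the right and lower to the left. The number called stayed between 4300 and 5476 except with a minimum fold of 1.2 (1005 genes), while upper-quartile and library-total scaling turned the split from 63.2% higher to 39.9% and 40.5% higher.

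Promoters of 4 of the gene groups that results below turn on are shown first, since each group is known for a short DNA motif to which a factor of its pathway binds. Windows of 250 bases before to 50 after the annotated start were taken from RefSeq (GRCm38.p6) by gene symbol, and both strands were searched. The motifs were the E-box CACGTG, bound by MYC and its partners, the ER stress element, bound by ATF6 with NF-Y and made of CCAAT and CCACG with 9 bases of any kind between them, a heat shock element of GAA, TTC and GAA with 2 bases of any kind between each, and the STAT site TTCNNNGAA. The end of the ER stress element, CCACG, can overlap the E-box by 4 letters. Each window below is printed 5′ to 3′ on the gene's strand, in lower case with the motif that the gene stands for in capitals.

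The first pair stands for endoplasmic reticulum folding factors with the ER stress element, Calr (chr8:84846882-84847181, minus strand) and Hspa5 (chr2:34771840-34772139, plus strand), the second for ribosome assembly factors with the E-box, Nop2 (chr6:125131633-125131932, plus strand) and Utp20 (chr10:88826765-88827064, minus strand), and Hsph1 (chr5:149636287-149636586, minus strand) and Irf1 (chr11:53769764-53770063, plus strand) stand for chaperones and interferon-responsive genes.
Calr: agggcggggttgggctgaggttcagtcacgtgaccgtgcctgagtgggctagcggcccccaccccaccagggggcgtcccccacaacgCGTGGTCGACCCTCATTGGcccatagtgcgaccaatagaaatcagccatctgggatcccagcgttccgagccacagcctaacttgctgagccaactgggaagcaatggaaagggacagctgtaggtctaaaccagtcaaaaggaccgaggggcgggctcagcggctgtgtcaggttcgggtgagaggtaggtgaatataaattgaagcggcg
Hspa5: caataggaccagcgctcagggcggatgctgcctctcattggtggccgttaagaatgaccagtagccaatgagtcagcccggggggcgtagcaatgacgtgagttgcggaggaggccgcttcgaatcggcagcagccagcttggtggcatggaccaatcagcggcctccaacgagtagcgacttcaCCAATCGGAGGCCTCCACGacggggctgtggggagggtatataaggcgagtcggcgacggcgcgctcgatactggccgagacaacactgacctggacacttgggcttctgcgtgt
Nop2: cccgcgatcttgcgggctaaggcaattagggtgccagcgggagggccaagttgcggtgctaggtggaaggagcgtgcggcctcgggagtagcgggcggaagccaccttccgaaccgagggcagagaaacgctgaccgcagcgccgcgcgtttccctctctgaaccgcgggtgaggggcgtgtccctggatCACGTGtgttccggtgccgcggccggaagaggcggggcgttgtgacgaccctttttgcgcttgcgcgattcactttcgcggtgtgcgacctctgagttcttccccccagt
Utp20: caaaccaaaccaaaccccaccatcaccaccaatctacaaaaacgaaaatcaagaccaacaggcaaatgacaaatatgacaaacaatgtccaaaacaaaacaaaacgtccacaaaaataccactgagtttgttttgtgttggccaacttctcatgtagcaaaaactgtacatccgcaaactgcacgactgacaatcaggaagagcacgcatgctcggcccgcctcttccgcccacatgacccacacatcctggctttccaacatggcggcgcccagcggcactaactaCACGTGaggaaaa
Hsph1: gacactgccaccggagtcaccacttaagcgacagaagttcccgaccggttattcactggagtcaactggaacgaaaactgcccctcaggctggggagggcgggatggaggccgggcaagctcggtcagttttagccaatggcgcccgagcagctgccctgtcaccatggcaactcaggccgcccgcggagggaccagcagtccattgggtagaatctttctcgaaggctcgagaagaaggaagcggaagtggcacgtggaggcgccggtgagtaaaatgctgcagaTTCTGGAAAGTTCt
Irf1: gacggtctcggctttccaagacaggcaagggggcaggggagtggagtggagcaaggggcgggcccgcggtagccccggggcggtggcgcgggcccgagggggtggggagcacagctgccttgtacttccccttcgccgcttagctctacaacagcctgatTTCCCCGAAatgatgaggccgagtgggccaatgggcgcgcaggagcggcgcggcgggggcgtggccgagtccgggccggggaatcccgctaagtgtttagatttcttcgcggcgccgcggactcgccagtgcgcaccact
In the Calr window the motif stands on the opposite strand and begins 162 bases before the start, in Hspa5 it begins 65 bases before, in Nop2 60 bases before and in Irf1 90 bases before. In Utp20 and in the Hsph1 window it lies after the start, by 37 and 36 bases. In Hsph1 it too stands on the opposite strand, and so reads TTC, GAA and TTC. Calr and Hsph1 also hold a CACGTG, left in lower case. Hsph1 and Irf1 have 2 starts each in the table, and the first with the motif is shown.

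The ER stress element was in 9 of the 23 matched endoplasmic reticulum genes (39.1%), against 0.137% of all 27025 genes in the table. Of those 9, 8 were higher with the shFabp7 partner, as were 8 of the 14 without it. The E-box stood in 10 of 46 matched ribosome assembly genes (21.7%), against 8.09% of all genes and 11.3% of the tested genes that matched. All those 10 were higher, and 32 of the 36 without it. For the heat shock element it was 4 of 21 chaperone genes (19%, against 0.662% of all genes), of which 3 were higher, next to 13 of the 17 without it. The STAT site was in 11 of 24 interferon-induced genes (45.8%, against 9.55%). Of these 3 were lower and 1 higher, and of the 13 without it 3 were lower and 1 higher. A match of letters describes the window and shows no binding.

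Factors that build ribosomes were higher with the shFabp7 partner almost throughout. Of 28 genes for transcription of ribosomal RNA and the small subunit processome 24 rose and none fell (median log2 fold change 0.44), and of 26 large subunit assembly factors 25 rose and none fell (median 0.47). Nolc1, a nucleolar chaperone of small nucleolar ribonucleoproteins, had 209, 190.4 and 173 CPM with the control partner and 315, 319.5 and 320.1 CPM with the shFabp7 partner. It was higher by 0.74 ± 0.06 on the log2 scale (edgeR adjusted p = 3.13e-11), and its lowest library with the shFabp7 partner stood far above the highest with the control partner. Utp20, a processome scaffold, had 91.00, 74.8 and 70.2 CPM with the control partner and 136, 139 and 139.5 CPM with the shFabp7 partner, a change of 0.81 ± 0.07 (edgeR adjusted p = 3.43e-10). For Nop2, the methyltransferase of large subunit RNA whose promoter is printed above, the libraries gave 102, 82.5 and 80.8 CPM with the control partner and 152, 145 and 153 CPM with the shFabp7 partner (log2 fold change 0.76 ± 0.06). Bop1 (0.70), Rrp12 (0.73), Nop16 (0.64), Dkc1 (0.56), Heatr1 (0.65), Utp4 (0.60) and Rrp9 (0.71) rose in the same way. Grwd1, a ribosome assembly factor outside these lists, had the smallest p of any gene that rose under the naming rule. Its values were 17.3, 15.4 and 13.7 CPM with the control partner and 32.2, 30.4 and 33.1 CPM with the shFabp7 partner, a log2 fold change of 1.05 ± 0.07. Npm1 was the large subunit gene that did not pass (0.15, chosen after its values were seen).

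The changes at 48 h were larger than those at 24 h for 14 of the 28 processome genes and 15 of the 26 large subunit genes by a test of the difference itself, and for none were they smaller. Over all genes that test called 949 (5.60%), of which 750 had a higher value at 48 h and 199 a lower one. This split too rested on the scaling, with 341 higher and 356 lower when libraries were scaled by their upper quartile. By library totals the numbers were 446 and 275. The processome genes with a larger value at 48 h were then 8 and 9, with 1 lower in each case, and the large subunit genes 10 and 11, with none lower. Nolc1 differed by 0.27 ± 0.06 at 24 h, so that its 48 h effect exceeded that at 24 h by 0.46 ± 0.08 (edgeR interaction contrast, adjusted p = 6.34e-04). The interaction counts depended on 1 library. Without the control replicate 1, which stood apart, 1680 genes were called, and leaving out any of the other 5 libraries gave between 564 and 589.

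Proteins of the finished ribosome went the other way. Of 70 cytosolic ribosomal protein genes 41 fell and 2 rose, with a median of -0.19, and the fall was small in each gene. Rps27 had 623, 678 and 708 CPM with the control partner and 526, 547 and 539 CPM with the shFabp7 partner. All control libraries lay above all shFabp7 libraries, and the log2 fold change was -0.32 ± 0.06 (edgeR adjusted p = 4.32e-05). Rps18 (-0.29), Rpl37 (-0.27), Rpl32 (-0.27) and Fau (-0.25), which carries the small subunit protein S30, fell as well. Rps2 rose (0.23 ± 0.05). At 24 h the median of the 70 genes was 0.09, and for 30 of them the 48 h effect was lower than the 24 h effect, for none higher (48 with upper-quartile scaling, 42 by library totals). Together these genes took 7.66 to 8.51% of the counts with the control partner and 6.87 to 7.05% with the shFabp7 partner. Over the settings tried, apart from the minimum fold of 1.2, under which none passed, between 28 and 58 of them fell, 57 of them with library totals and 49 without the control replicate 1. Many of these genes have processed pseudogenes of near-identical sequence, and how reads shared with them were counted is not given in the sources used here.

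Translation factors and the enzymes that load transfer RNAs were higher. Of 28 translation factors 22 rose and none fell (median 0.31). Eif5a, the factor that carries hypusine, had 771, 712 and 729 CPM with the control partner and 1071, 1067 and 1088 CPM with the shFabp7 partner (0.54 ± 0.05). The scaffold Eif4g1 (0.65), the eIF3 subunit Eif3b (0.67), Eif2b1 (0.53) and Eif6 (0.54) rose too. Among 20 aminoacyl-tRNA synthetases 14 rose and none fell (median 0.24), with Farsa at 0.55 ± 0.06, Hars at 0.53 ± 0.05 and Rars at 0.49 ± 0.06. Mitochondrial ribosomal proteins and import proteins followed, 24 of 28 higher and none lower (median 0.36). Tomm40, the channel of the outer membrane, had 90.9, 66.5 and 72.7 CPM with the control partner and 134, 132 and 136 CPM with the shFabp7 partner and rose by 0.80 ± 0.07 (edgeR adjusted p = 1.73e-08).

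Small molecules for growth were represented by polyamine, nucleotide and one-carbon enzymes. Srm, spermidine synthase, had 76.7, 61.4 and 60.8 CPM with the control partner and 134, 129.9 and 135 CPM with the shFabp7 partner. The lowest shFabp7 library was far above the highest control library (log2 fold change 1.00 ± 0.07, edgeR adjusted p = 9.80e-11). Odc1, the first enzyme of the pathway, rose by 0.60 ± 0.06, and 7 of the 11 polyamine genes were higher; 5 were with library totals. The single gene that fell was Sat1 (-0.20 ± 0.07), the enzyme that acetylates polyamines for export, and it lost its call in DESeq2 and without any of 4 libraries (adjusted p 0.0597 to 0.296). Of 21 nucleotide synthesis genes 17 rose, among them Cad, the first enzyme of pyrimidine synthesis (290.5, 227 and 223 CPM with the control partner and 411, 416 and 420.3 CPM with the shFabp7 partner; log2 0.75 ± 0.07), Gart (0.69), Atic (0.56) and Umps (0.55). The exception was Adssl1, which makes adenylosuccinate and is best known from muscle: it fell from 18.1, 20.1 and 20.9 to 11.8, 11.4 and 11.3 CPM (log2 -0.77 ± 0.11, edgeR adjusted p = 1.56e-06). Mthfd1 (0.70 ± 0.05), Shmt1 (0.67 ± 0.06), Mthfd1l (0.57) and Mat2a (0.46) were among 8 of 12 one-carbon genes that rose, none fell. Amino acid transporters rose in 6 of 12 cases and in 4 with library totals, led by Slc6a6 (0.41), Slc7a1 (0.33) and Slc7a6 (0.32).

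Folding factors of the endoplasmic reticulum were higher in 19 of 26 cases and lower in none (median 0.35). Calr, calreticulin, had 561, 497 and 498 CPM with the control partner and 782, 808 and 824 CPM with the shFabp7 partner, a log2 fold change of 0.63 ± 0.05 (edgeR adjusted p = 1.38e-10). No library of one group reached the other, which the rule for the most read genes, under which Calr was named too, required. The co-chaperone Sdf2l1 (0.64 ± 0.06), the nucleotide exchange factor Hyou1 (0.62 ± 0.06), the secreted protein Manf (0.60 ± 0.05) and Dnajb11 (0.56 ± 0.05) rose by similar amounts. At 24 h the median of the list was 0.03, and 14 of its genes had a larger effect at 48 h, none a smaller one: Manf differed by 0.09 ± 0.05 at 24 h, and its 2 effects by 0.51 ± 0.07 (edgeR interaction contrast, adjusted p = 4.84e-05). Targets of the integrated stress response, the branch through ATF4, did not move with them, with 1 of 15 higher and 1 lower. The one lower was Ddit3, the stress factor CHOP, with 32.6, 30.9 and 33.5 CPM with the control partner and 22.4, 24.5 and 23.7 CPM with the shFabp7 partner (-0.46 ± 0.07, edgeR adjusted p = 9.22e-06). The one higher, Ppp1r15a (0.18 ± 0.06), lost its call with library totals and upper-quartile scaling, in the 48 h libraries alone, with the stricter filter and without the control replicate 2 or the shFabp7 replicate 3 (adjusted p 0.0513 to 0.289).

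Cytosolic and mitochondrial chaperones were higher in 22 of 27 cases, and in 15 with library totals. Hsph1, a nucleotide exchange factor for HSP70, had 122, 104 and 107 CPM with the control partner and 190.1, 188 and 191 CPM with the shFabp7 partner (log2 0.77 ± 0.05, edgeR adjusted p = 4.73e-12). Hspd1, the mitochondrial chaperonin, had 434, 443 and 423 CPM with the control partner and 697, 680.4 and 683 CPM with the shFabp7 partner (log2 0.66 ± 0.05). Hspa9 (0.53), Stip1 (0.54), Hsp90aa1 (0.51) and the chaperonin subunit Cct3 (0.45) rose as well. The inducible HSP70 gene Hspa1a went down, from 2.94, 3.01 and 3.83 to 2.56, 1.87 and 1.77 CPM (-0.65 ± 0.20), but lost its call without the control replicate 3 or the shFabp7 replicate 2 or 3 (adjusted p 0.0604 to 0.0931), and it is nearly identical to Hspa1b. Proteasome subunits rose in 28 of 31 cases with none lower (median 0.30). Psmd1 had 100.5, 95.7 and 93.7 CPM with the control partner and 146, 150.2 and 147 CPM with the shFabp7 partner (0.62 ± 0.05), and Psmc5 (0.55), Psmd7 (0.51), Psmd3 (0.50) and Psmd2 (0.49), all of the regulatory particle, followed. Psmb9, a subunit of the immunoproteasome that interferon gamma induces, was lower (-0.24 ± 0.05), and Psmb10 was higher (0.24 ± 0.06).

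**Figure D3:**
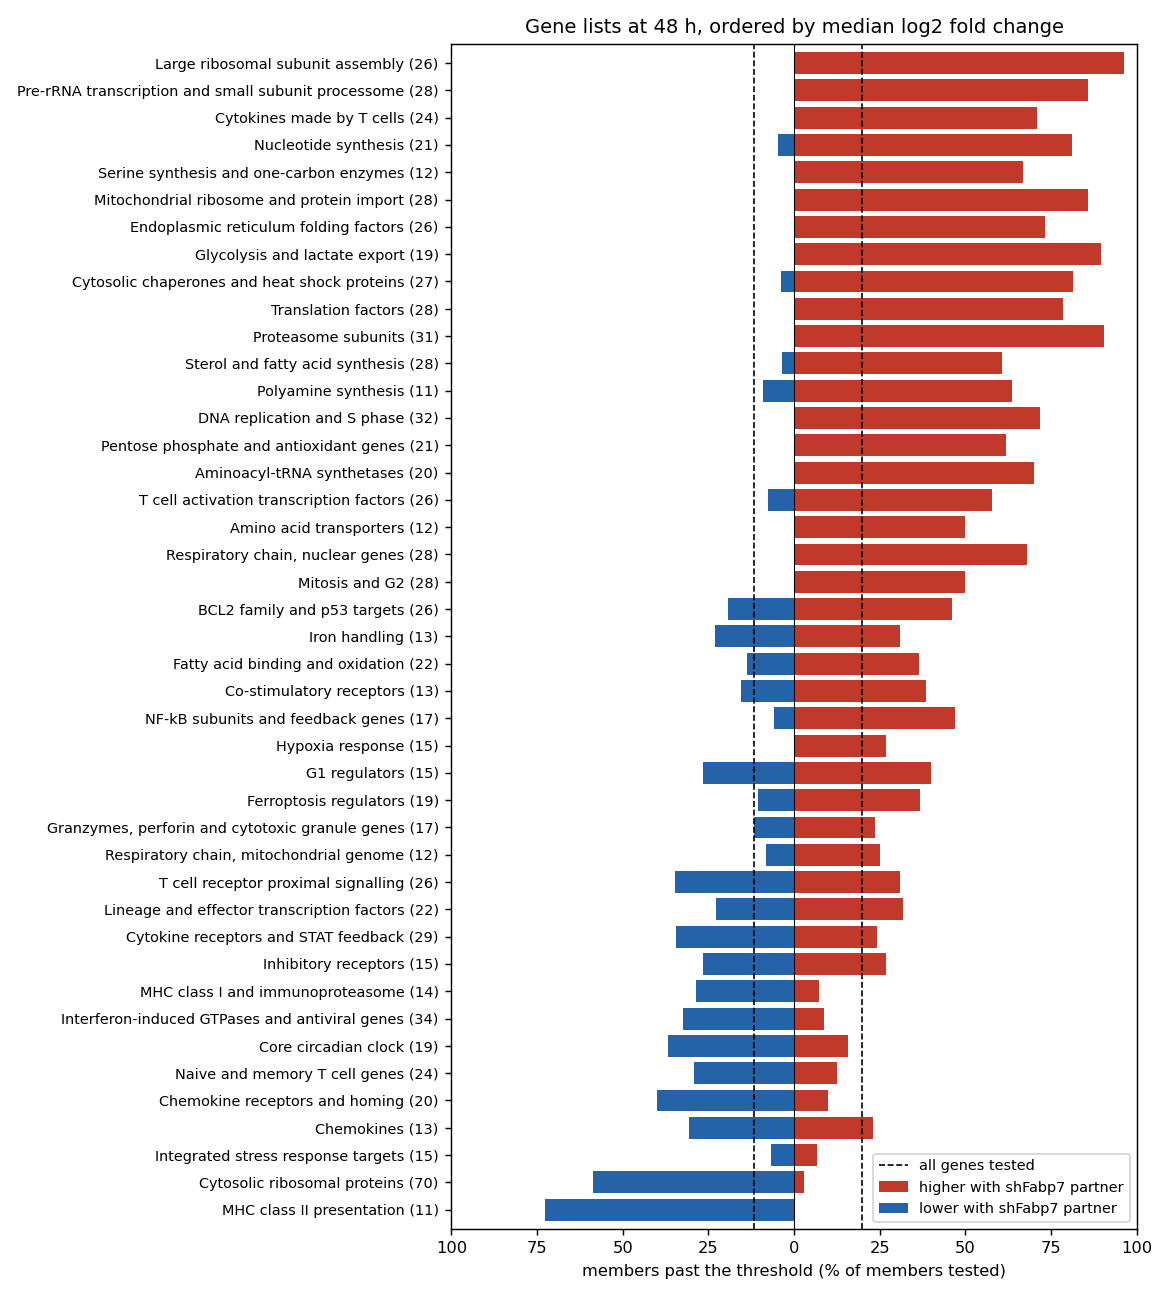
For each gene list, with the number of members tested in brackets, bars give the percentage of members past the threshold, higher with the shFabp7 partner to the right and lower to the left; lists are ordered by median log2 fold change. Dashed lines mark the shares over all genes tested, 19.9% and 11.6%, and the large subunit assembly list reaches 25 of 26 higher while the MHC class II list has 8 of 11 lower.

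Glycolysis genes were higher in 17 of 19 cases and lower in none (median 0.33). Pgam1, phosphoglycerate mutase, had 332, 278 and 286 CPM with the control partner and 452, 461 and 462 CPM with the shFabp7 partner (log2 0.62 ± 0.06, edgeR adjusted p = 3.96e-10). The hexokinase Hk2 (0.61 ± 0.06), the phosphofructokinase subunit Pfkl (0.56 ± 0.06), the glucose transporter Slc2a1 (0.50 ± 0.06) and Ldha (0.48 ± 0.05) rose with it. At 24 h the median was 0.06, and 14 of the 19 genes had a larger effect at 48 h. Slc16a3, which exports lactate, had 98.4, 80.7 and 79.2 CPM with the control partner and 121, 126 and 132 CPM with the shFabp7 partner (0.55 ± 0.07), and its 24 h difference had the opposite sign (-0.46 ± 0.09), so that the effects differed by 1.02 ± 0.11 (edgeR interaction contrast, adjusted p = 2.28e-06). Of 15 hypoxia response genes 4 rose: Adm, the vasoactive peptide adrenomedullin, from 2.07, 2.16 and 2.52 to 5.13, 5.77 and 6.71 CPM (1.38 ± 0.17), the prolyl hydroxylases Egln3 (0.60) and Egln1 (0.27), and the oxidase Ero1a (0.37), which is also on the endoplasmic reticulum list. In the pentose phosphate and antioxidant list 13 of 21 were higher and none lower, among them Pgd (0.62 ± 0.06), Txnrd1 (0.57 ± 0.06), Tkt (0.45), G6pdx (0.45) and Gsr (0.43).

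Of the 28 respiratory chain genes of the nucleus on the list 19 were higher and none lower, by less than the groups above (median 0.21). Ndufa6, a complex I subunit that is not on the list, fell (-0.40) and is described in a later section. Uqcrc1 (0.46 ± 0.05), Atp5b (0.37 ± 0.05), Sdhc (0.33), Cyc1 (0.31) and Atp5a1 (0.29) were the list members with the smallest p. For transcripts of the mitochondrial genome the calls depended on the setting: of 12 tested mt-Nd1 (0.30 ± 0.08), mt-Nd2 (0.26 ± 0.07) and mt-Cytb (0.23 ± 0.07) passed upwards and mt-Atp8 (-0.48 ± 0.14) downwards. mt-Cytb lost its call with library totals (adjusted p = 0.123) and mt-Nd2 too (0.0733), mt-Nd1 without the control replicate 1 (0.0581), and mt-Atp8 without any of 4 libraries (0.0596 to 0.0782). Their median was 0.06, and -0.03 with library totals.

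Iron and ferroptosis genes moved singly. Tfrc, the transferrin receptor, had 229.5, 271 and 264 CPM with the control partner and 438, 418 and 410.4 CPM with the shFabp7 partner. This was the largest change in its list, 0.73 ± 0.07 on the log2 scale (edgeR adjusted p = 7.66e-09). Among 13 iron genes Aco1 (0.36), an iron-sensing aconitase, and Ftl1 (0.31), the ferritin light chain, also rose, as did Hmox1 (0.39, chosen after its values were seen), while the transporters Slc11a2 (-0.25) and Slc25a28 (-0.30) and the iron sensor Fbxl5 (-0.25, chosen after its values were seen) fell. Of 19 regulators of ferroptosis 7 rose and 2 fell. Acsl4, which loads arachidonate onto coenzyme A, had 130.4, 141 and 143 CPM with the control partner and 179, 171 and 163 CPM with the shFabp7 partner (0.31 ± 0.06), and Dhodh rose by 0.47 ± 0.07. Lpcat3 rose (0.22) but not with library totals (adjusted p = 0.0666), and Sat1 and Pla2g6 (-0.22) fell, each losing its call under some settings (Pla2g6 without the control replicate 1 or the shFabp7 replicate 2, adjusted p 0.0541 and 0.053). For Gpx4, the peroxidase that guards against ferroptosis, named here after its values were seen, the libraries gave 137, 152 and 158 CPM with the control partner and 149, 152 and 152 CPM with the shFabp7 partner, which overlap, with a log2 fold change of 0.02 ± 0.06.

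Fatty acid genes were taken as 2 lists. Of 28 sterol and fatty acid synthesis genes 17 rose and Sc5d alone fell (-0.21, not called in DESeq2 or without any of 4 libraries, adjusted p 0.0602 to 0.19). Acly, which makes cytosolic acetyl-CoA, had 277, 252 and 241 CPM with the control partner and 366, 354 and 368 CPM with the shFabp7 partner (0.50 ± 0.05), and Sqle (0.52), Idi1 (0.58) and Acaca (0.40) rose as well. Of 22 genes for binding, activation and oxidation 8 rose and 3 fell, and with library totals 4 and 4. Fabp5, Acsl5 (0.36) and the transporter Slc27a4 (0.29) were higher. Slc27a1, another transporter, went down from 20.2, 18.1 and 16.97 to 12.6, 12.8 and 11.7 CPM (-0.57 ± 0.09), and Cpt1a, which admits fatty acids to mitochondria for oxidation, fell by 0.20 on the log2 scale (83.4, 79.1 and 74.8 CPM with the control partner and 65.6, 69.02 and 71.5 CPM with the shFabp7 partner). The lipid droplet protein Plin2 (-0.22, chosen after its values were seen) was the other gene that fell.

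Cytokine transcripts were higher with the shFabp7 partner in 17 of 24 cases and lower in none, with a median of 0.43. Ifng, interferon gamma, had 268, 267 and 293 CPM with the control partner and 484, 466 and 468 CPM with the shFabp7 partner (log2 0.78 ± 0.07, edgeR adjusted p = 1.47e-08). Il13, a type 2 cytokine, had 124, 112 and 119 CPM with the control partner and 198, 203 and 211 CPM with the shFabp7 partner (0.79 ± 0.06). Il3, a growth factor of myeloid cells, had 5.75, 5.71 and 5.82 CPM with the control partner and 11.6, 12.7 and 14.8 CPM with the shFabp7 partner (1.17 ± 0.11). In none of these 3 did the groups overlap, and Ifng and Il13 belong to different helper programmes. Il24 rose by 0.72 ± 0.07, from 61.1, 70.03 and 69.03 to 111, 106 and 112 CPM, and Csf2 by 0.65 ± 0.06, from 43.3, 44.2 and 50.3 to 67.8, 74.7 and 73.98 CPM. At 24 h Ifng differed by 0.55 ± 0.07, and the difference between the 2 times did not pass (edgeR interaction contrast, adjusted p = 0.218).

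Chemokines moved both ways, 3 of 13 higher and 4 lower. Ccl3 had 97.4, 84.5 and 86.3 CPM with the control partner and 166, 165 and 173 CPM with the shFabp7 partner (0.91 ± 0.06). Ccl4 had 52.00, 43.5 and 44.3 CPM with the control partner and 73.96, 70.6 and 79.4 CPM with the shFabp7 partner (0.68 ± 0.07). Ccl9 had 8.31, 7.69 and 7.505 CPM with the control partner and 11.97, 14.3 and 12.3 CPM with the shFabp7 partner (0.71 ± 0.11). The interferon-inducible Cxcl9 had 28.3, 28.8 and 33.8 CPM with the control partner and 22.1, 21.7 and 23.3 CPM with the shFabp7 partner (-0.44 ± 0.08, edgeR adjusted p = 6.89e-05). Ccl17 had 9.703, 9.596 and 9.595 CPM with the control partner and 5.94, 6.85 and 5.57 CPM with the shFabp7 partner (-0.66 ± 0.11). Cxcl10 (-0.38) and Cxcl16 (-0.53) also fell, both chosen after their values were seen. Ccl17 is also a marker of dendritic cells. Their 11 markers summed to 280 to 319 CPM with the control partner and 302 to 329 CPM with the shFabp7 partner. Most of this sum came from Ccl22, which did not pass, and Cd83, which rose (0.28), with Cd209a and Siglech at 0. The part of dendritic cells in the result was not tested.

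Receptors for cytokines were divided, with 7 of 29 genes higher and 10 lower (7 and 14 with library totals). Il12rb2, the inducible chain of the interleukin 12 receptor, had 164, 165 and 161 CPM with the control partner and 274, 256 and 266 CPM with the shFabp7 partner (0.70 ± 0.05, edgeR adjusted p = 4.73e-12). Il2ra, the high-affinity chain for interleukin 2, had 747, 719 and 711 CPM with the control partner and 1013, 964 and 1008 CPM with the shFabp7 partner (0.46 ± 0.06). Il18r1 went from 71.1, 77.8 and 75.5 to 48.4, 50.5 and 48.04 CPM (-0.61 ± 0.07) and Il1rl1, the interleukin 33 receptor, from 41.8, 40.6 and 40.02 to 28.5, 27.6 and 30.1 CPM (-0.51 ± 0.06). Ifngr1, the binding chain of the interferon gamma receptor, had 387, 408 and 428 CPM with the control partner and 276, 293 and 306 CPM with the shFabp7 partner (log2 -0.48 ± 0.06, edgeR adjusted p = 8.45e-08). Thus Ifng was higher and its receptor chain lower in the same libraries, without overlap in either.

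Genes that interferon induces were lower more often than higher, 11 of 34 against 3, with a median of -0.06. Irf1, whose promoter is shown above, had 437, 397 and 419 CPM with the control partner and 314, 346 and 352 CPM with the shFabp7 partner (-0.31 ± 0.06, edgeR adjusted p = 5.05e-05). Of the guanylate binding proteins Gbp8 had 105, 106 and 116 CPM with the control partner and 79.2, 77.6 and 76.9 CPM with the shFabp7 partner (-0.48 ± 0.06). Gbp4 had 348, 354 and 372 CPM with the control partner and 284, 270.5 and 289 CPM with the shFabp7 partner (-0.35 ± 0.06). Gbp9 had 128, 137 and 139 CPM with the control partner and 106, 106 and 113 CPM with the shFabp7 partner (-0.31 ± 0.06). Gbp genes are close paralogs and how shared reads were counted is not known here. The genes that rose were Oasl1, from 1.72, 0.978 and 0.579 to 2.68, 2.15 and 3.02 CPM (1.27 ± 0.27), Oas2 (0.44, chosen after its values were seen) and Irf8 (0.21 ± 0.05), which lost its call with upper-quartile scaling (adjusted p = 0.052). The list's median at 24 h was -0.20, and 2 of its genes had a different effect at the 2 times.

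MHC class II presentation genes had the largest share of members lower of the 43 lists, 8 of 11 with none higher (median -0.60). H2-DMb2, a chain of the peptide exchanger, had 45.3, 48.6 and 43.9 CPM with the control partner and 22.4, 22.6 and 25.7 CPM with the shFabp7 partner (-0.96 ± 0.08, edgeR adjusted p = 7.67e-10). H2-Ob had 29.9, 37.3 and 36.7 CPM with the control partner and 21.8, 20.1 and 20.5 CPM with the shFabp7 partner (-0.73 ± 0.09). H2-Oa had 30.03, 34.3 and 34.3 CPM with the control partner and 17.4, 21.5 and 20.4 CPM with the shFabp7 partner (-0.73 ± 0.08). H2-Oa and H2-Ob are the 2 chains of the molecule that holds the exchanger back. The class II chain H2-Aa went from 26.8, 25.2 and 27.6 to 17.2, 18.4 and 16.9 CPM (-0.60 ± 0.07), and H2-DMb1 fell by 0.73 on the log2 scale. In each of these the groups were separate. Mouse T cells are not known for class II expression, which belongs to B cells, dendritic cells and macrophages. The 12 B cell markers summed to 372 to 501 CPM with the control partner and 396 to 551 CPM with the shFabp7 partner, most of it Ighm (308, 256 and 341 CPM with the control partner and 258, 285 and 361 CPM with the shFabp7 partner), none was at 0 in all libraries, and none passed the test. The 14 monocyte and macrophage markers summed to 288 to 306 and 293 to 298 CPM, mostly Ctsb, and 3 of the 10 tested fell, Mpeg1 (-0.49), Lyz2 (-0.76) and Arg1 (-1.31), chosen after their values were seen. Their part in the fall of class II was not tested. In class I presentation 4 of 14 genes were lower, Nlrc5, its transcriptional activator (-0.39 ± 0.05), Psmb9, and by less H2-K1 (-0.17) and B2m (-0.17); H2-K1 lost its call without the shFabp7 replicate 1 (adjusted p = 0.0567) and B2m without any of 5 libraries (adjusted p 0.0639 to 0.191). H2 genes share sequence, so their counts are uncertain.

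**Figure D4:**
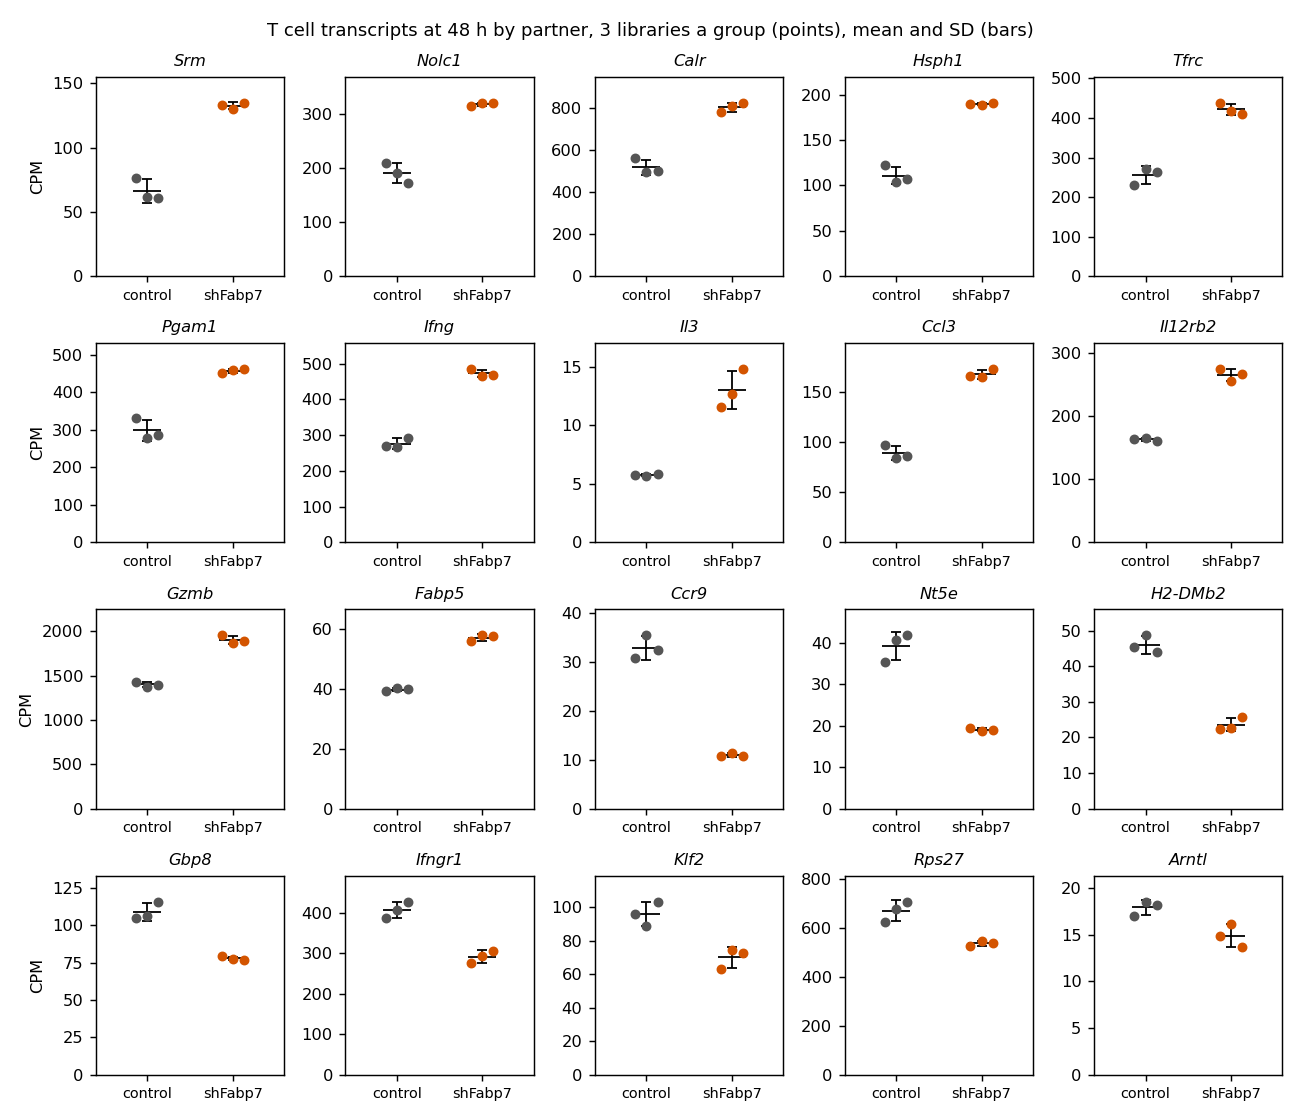
CPM of 20 genes in each of the 6 libraries at 48 h (points), with the mean and SD of the 3 libraries of a group (bars); vertical axes start at 0. Srm, Nolc1, Calr, Hsph1, Tfrc, Pgam1, Ifng, Il3, Ccl3, Il12rb2, Gzmb and Fabp5 are higher with the shFabp7 partner, the other 8 lower, and the 2 groups overlap in none of the 20. The genes shown were picked with their values known, and the groups did not overlap for 44.0% of all genes tested.

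Cytotoxic granule genes were not moved as a set, with 4 of 17 higher and 2 lower. Gzmb, granzyme B, had 1433, 1376 and 1395 CPM with the control partner and 1952, 1862 and 1887 CPM with the shFabp7 partner (0.44 ± 0.05). Prf1, perforin, had 58.2, 52.2 and 55.5 CPM with the control partner and 87.97, 77.6 and 80.7 CPM with the shFabp7 partner (0.57 ± 0.06). Serpinb9, the inhibitor that protects killer cells from granzyme B, had 231, 232 and 242 CPM with the control partner and 332, 325 and 334 CPM with the shFabp7 partner (0.49 ± 0.05). All 3 were separate between the groups. Ctsc (0.16, chosen after its values were seen), which processes granzymes, was the fourth. Ctsw (-0.36 ± 0.06) and Ctla2a (-0.56 ± 0.12) fell.

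Inhibitory receptors split evenly, 4 of 15 higher and 4 lower. Nt5e, the CD73 ecto-enzyme that makes adenosine, had 35.4, 40.6 and 41.8 CPM with the control partner and 19.6, 18.8 and 18.9 CPM with the shFabp7 partner (log2 -1.04 ± 0.07, edgeR adjusted p = 4.73e-12). The lowest control value was well above the highest shFabp7 value. The rule for the smallest p, under which Nt5e was named too, required groups without overlap. Klrg1, at 4.17, 3.76 and 4.05 and 2.23, 2.49 and 2.22 CPM, fell by 0.79 on the log2 scale, and Tigit (0.31 ± 0.05), Cd160 (0.40 ± 0.10) and Cd5 (0.23 ± 0.05) rose. Btla (0.24) rose and Cd96 (-0.19) and Pvrig (-1.10) fell, all chosen after their values were seen. Of 13 co-stimulatory receptors 5 rose, Tnfrsf8 (0.47 ± 0.08), Cd40lg (0.40), Tnfrsf9 (0.26 ± 0.05), Tnfrsf4 (0.15) and Cd28 (0.16, chosen after its values were seen), and Tnfrsf14 (-0.30 ± 0.06) and Tnfrsf1b (-0.14) fell. With library totals 3 rose and 3 fell. Tnfrsf4 lost its call with library totals (adjusted p = 0.326) and upper-quartile scaling (0.355), and also with no filter or without the control replicate 3 or the shFabp7 replicate 2 or 3 (adjusted p 0.0633 to 0.095). Tnfrsf1b lost it in DESeq2 (adjusted p = 0.0514) and under 7 other settings.

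Chemokine receptors and homing genes were lower in 8 of 20 cases and higher in 2. Ccr9, the receptor that takes T cells to the gut, had 30.6, 35.3 and 32.3 CPM with the control partner and 10.7, 11.3 and 10.7 CPM with the shFabp7 partner. Every shFabp7 library lay far under every control library, and the log2 fold change was -1.59 ± 0.09 (edgeR adjusted p = 6.70e-14). Ccr9 was also named under the rule for the largest falls, which required groups without overlap. It was lower at 24 h too (-0.77 ± 0.10), and by more at 48 h (difference -0.81 ± 0.14, edgeR interaction contrast, adjusted p = 5.68e-04). Cxcr4 had 80.8, 81.5 and 82.7 CPM with the control partner and 53.1, 61.6 and 62.1 CPM with the shFabp7 partner (-0.47 ± 0.06). Itgae, the CD103 integrin of tissue T cells, had 5.996, 5.505 and 5.51 CPM with the control partner and 2.99, 3.45 and 3.99 CPM with the shFabp7 partner (-0.71 ± 0.14). Ccr4 (0.42 ± 0.06) and Ccr8 (0.35 ± 0.05) rose. Among 24 genes of naive and memory T cells 7 were lower (12 with library totals) and 3 higher. Klf2, a factor of quiescence and trafficking, had 95.8, 89.01 and 103 CPM with the control partner and 63.03, 74.5 and 72.8 CPM with the shFabp7 partner (-0.46 ± 0.07). Pik3ip1, an inhibitor of PI3 kinase, had 51.5, 53.2 and 55.4 CPM with the control partner and 36.3, 37.6 and 41.2 CPM with the shFabp7 partner (-0.48 ± 0.07), while Satb1 (0.35 ± 0.05) and Pdlim1 (0.33 ± 0.05) rose.

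Transcription factors of activation were higher in 15 of 26 cases and lower in 2. Myc had 398, 343 and 329.8 CPM with the control partner and 456, 469.5 and 482 CPM with the shFabp7 partner (0.39 ± 0.06, edgeR adjusted p = 1.88e-06). Irf4 had 594, 529 and 502 CPM with the control partner and 730.1, 707 and 740.2 CPM with the shFabp7 partner (0.42 ± 0.06). Batf had 67.3, 69.5 and 65.6 CPM with the control partner and 90.2, 90.5 and 91.8 CPM with the shFabp7 partner (0.43 ± 0.06). Those that fell were Mxd4 (-0.48 ± 0.06), which competes with MYC for MAX, from 59.01, 58.8 and 65.2 to 40.6, 45.8 and 44.5 CPM, and Myb (-0.39 ± 0.06). Of 22 lineage factors 7 rose and 5 fell. Tbx21, the factor T-bet of type 1 cells (0.32 ± 0.06), and Gata3, the factor of type 2 cells (0.35 ± 0.05), both rose, as did Bhlhe40 (0.42 ± 0.06) and Nfil3 (0.49 ± 0.06), and Bcl6 (-0.38 ± 0.08) and Rora (-0.37 ± 0.06) fell, as did Maf (-0.17), Ikzf2 (-0.15) and Tox2 (-0.55), chosen after their values were seen. For NF-kB 8 of 17 genes rose, among them Nfkb1 (0.41 ± 0.06), Nfkb2 (0.37), Nfkbid (0.41) and Nfkbib (0.36), and Birc3 fell (-0.20 ± 0.05); with library totals 5 rose and 2 fell. In T cell receptor signalling 8 of 26 rose and 9 fell; with library totals 2 rose and 9 fell, and the median turned from 0.03 to -0.05. The shares that rose in these last 2 lists, like those of several lists named above, are near or under those of all genes at such levels. Lcp2 (0.27 ± 0.05) and Dusp5 (0.25 ± 0.05) were higher and the phosphatase Ptpn22 (-0.26 ± 0.05) and the receptor subunit Cd3g (-0.20 ± 0.05) lower.

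Replication genes rose in 23 of 32 cases and none fell (median 0.25). Mcm4, of the replicative helicase, had 304, 292 and 278 CPM with the control partner and 413, 408 and 409 CPM with the shFabp7 partner (0.49 ± 0.05), and Rrm2 (0.60 ± 0.05), Uhrf1 (0.47), Mcm3 (0.41) and Mcm2 (0.43) rose. Mitotic genes rose in 14 of 28 cases and none fell, and in 9 with library totals: Ube2c (0.64 ± 0.07), Plk1 (0.63 ± 0.06), Cdc20 (0.65 ± 0.07), Aurka (0.52) and Ccnb1 (0.37) led. The medians at 24 h were 0.20 for replication and 0.14 for mitosis, where mitosis had 0.14 at 48 h as well, and 1 of 32 and 2 of 28 had a different effect at the 2 times. Among 15 regulators of G1 phase 6 rose and 4 fell, and with library totals 3 and 4. Ccnd2, cyclin D2 (0.38 ± 0.05), Cdk6 (0.34 ± 0.05) and the inhibitor Cdkn1a (0.45 ± 0.08) were higher. The inhibitor p27, Cdkn1b, was lower, with 85.1, 93.5 and 95.2 CPM with the control partner and 65.5, 66.00 and 65.6 CPM with the shFabp7 partner (-0.48 ± 0.06), as was Cdkn1c (-0.85 ± 0.19). Rbl1 and Cdkn2d, chosen after their values were seen, fell by 0.16 each.

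In the list of BCL2 family members and p53 targets 12 of 26 rose and 5 fell. Trp53 itself (0.40 ± 0.06), the survival gene Bcl2l1 (0.38 ± 0.05), the death effector Bak1 (0.43 ± 0.06) and the nuclease Aen (0.27) were higher. Bcl2l11, the killer protein BIM, had 117, 110.0 and 115 CPM with the control partner and 88.5, 98.2 and 98.02 CPM with the shFabp7 partner (-0.26 ± 0.06). Sesn1, which restrains mTORC1, had 67.4, 75.6 and 76.8 CPM with the control partner and 48.8, 49.05 and 47.3 CPM with the shFabp7 partner (-0.60 ± 0.06). The others that fell, chosen after their values were seen, were Bcl2 (-0.22), the death receptor Fas (-0.29) and Bmf (-0.72). Circadian clock genes were lower in 7 of 19 cases and higher in 3, Bhlhe40, Nfil3 and Cry1 (0.18, chosen after its values were seen). Dbp had 14.5, 15.5 and 15.3 CPM with the control partner and 9.93, 10.6 and 11.1 CPM with the shFabp7 partner (-0.52 ± 0.09). Nr1d2 had 32.2, 34.7 and 38.8 CPM with the control partner and 27.8, 28.7 and 26.1 CPM with the shFabp7 partner (-0.36 ± 0.07). Arntl, the core clock activator also called Bmal1, had 17.03, 18.5 and 18.2 CPM with the control partner and 14.9, 16.1 and 13.7 CPM with the shFabp7 partner (-0.27 ± 0.08, edgeR adjusted p = 0.00808); the call was lost without the shFabp7 replicate 3 (adjusted p = 0.0779).

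Outside the lists, the largest rises among genes that reach a mean of 1 CPM with either partner were in genes of varied function. Ehd2, a membrane ATPase of caveolae, had 2.59, 2.96 and 2.29 CPM with the control partner and 8.07, 8.15 and 9.01 CPM with the shFabp7 partner (1.68 ± 0.18). Selp, the adhesion molecule P-selectin, had 12.6, 10.4 and 11.4 CPM with the control partner and 34.6, 32.2 and 35.6 CPM with the shFabp7 partner (1.57 ± 0.10, edgeR adjusted p = 5.36e-12). Inhba, a subunit of activin, had 3.57, 3.47 and 3.98 CPM with the control partner and 11.4, 8.203 and 9.59 CPM with the shFabp7 partner (1.41 ± 0.14). Penk, the precursor of enkephalins, had 35.5, 31.9 and 35.7 CPM with the control partner and 80.9, 85.1 and 93.4 CPM with the shFabp7 partner (1.33 ± 0.08). In each of these the lowest shFabp7 library was above the highest control library, which the rule for naming them required. Kcnk10 (1.65), a potassium channel, Npw (1.38), a neuropeptide precursor, Tnfrsf19 (1.37), Gng4 (1.35), Efna5 (1.31) and Ccdc116 (1.28) completed the group, along with Pde1a (1.52), whose call was lost without the shFabp7 replicate 3 (adjusted p = 0.0596). Among the largest falls next to Ccr9 were those of S100a8 (1.47, 0.7203 and 1.23 CPM with the control partner and 0.1900, 0.255 and 0.277 CPM with the shFabp7 partner; -2.24 ± 0.40) and S100a9 (3.22, 1.29 and 2.64 CPM with the control partner and 0.475, 1.02 and 1.22 CPM with the shFabp7 partner; -1.41 ± 0.32), calcium-binding proteins of neutrophils. The 11 neutrophil markers summed to 5.48 to 10.2 CPM with the control partner and 3.33 to 4.88 CPM with the shFabp7 partner, with Retnlg at 0. S100a8 and S100a9 are themselves in this sum, which is therefore no separate measure. The part of neutrophils in these falls was not tested. Ypel1 (-1.56), Cspg5 (-1.38), Atp2a1 (-1.37), Gda (-1.34), Cyp46a1 (-1.33) and Barhl1 (-1.33) fell as well. Chil3 (-2.05), Tppp (-1.56) and Cfap46 (-1.40) passed too but lost the call without 1 library or another (Chil3 without any of 4, adjusted p 0.0613 to 0.109; Tppp 0.091 and 0.0927; Cfap46 0.0893).

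Among the genes with the smallest p that fell were several with no list of their own. Calcoco1, an autophagy receptor, had 84.7, 76.2 and 76.8 CPM with the control partner and 47.9, 49.6 and 50.1 CPM with the shFabp7 partner (-0.69 ± 0.06). Prex1, an exchange factor for Rac, had 204, 205 and 198 CPM with the control partner and 121, 126 and 127 CPM with the shFabp7 partner (-0.70 ± 0.06). Rgs10, a brake on G protein signals, had 48.9, 54.7 and 54.2 CPM with the control partner and 31.5, 32.7 and 31.9 CPM with the shFabp7 partner (-0.72 ± 0.07). Khnyn (-0.64), an antiviral cofactor, Mturn (-0.80), Lztfl1 (-0.85), Klhl24 (-0.65) and Gprasp1 (-0.61) fell as well. Of the most read transcripts with changes of at least 0.5, Malat1, a nuclear long non-coding RNA, fell (1781, 1914 and 1837 CPM with the control partner and 1364, 1156 and 1244 CPM with the shFabp7 partner; -0.56 ± 0.07), and Actb (0.52 ± 0.07), the RNA-binding Ybx1 (0.54 ± 0.06) and Hnrnpab (0.69 ± 0.06) and the translation regulator Eif4g2 (0.55 ± 0.05) rose.

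The effect of the partner was not the same at 24 h and 48 h for 949 genes, and 864 of these were among those called at 48 h. Selp differed by -0.23 ± 0.15 at 24 h and by 1.57 ± 0.10 at 48 h (difference 1.804, edgeR interaction contrast, adjusted p = 4.67e-07). For Il12rb2 the 24 h value was -0.09 ± 0.06 (difference 0.79 ± 0.07, edgeR interaction contrast, adjusted p = 6.81e-08). Vim, the intermediate filament protein vimentin, had 209, 197 and 199 CPM with the control partner and 286, 296 and 290.3 CPM with the shFabp7 partner, a log2 fold change of 0.53 ± 0.05, where that at 24 h was -0.03 ± 0.06. Vim makes up most of the summed fibroblast markers (208 to 223 CPM with the control partner and 298 to 308 CPM with the shFabp7 partner), of which Col1a1, Col1a2 and Fn1 did not pass.

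**Figure D5:**
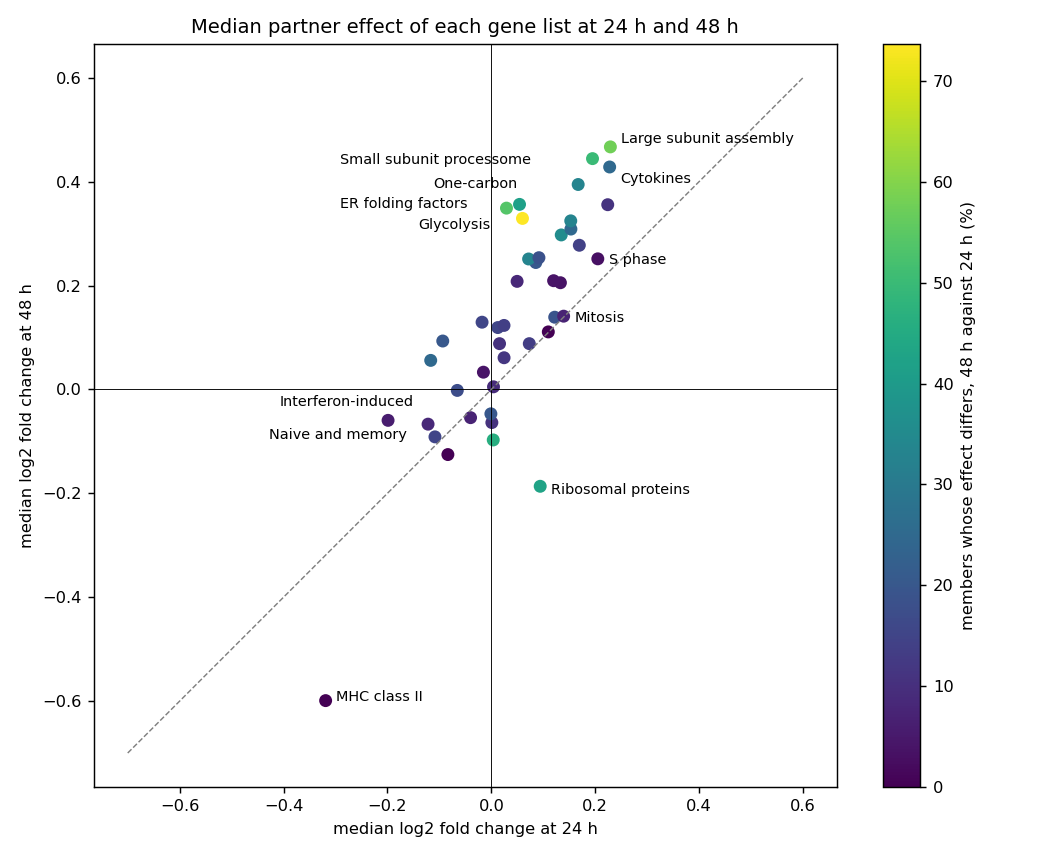
Each point is 1 of the 43 gene lists, with its median log2 fold change (shFabp7 over control partner) at 24 h on the horizontal axis and at 48 h on the vertical axis; the dashed line marks equal effects and colour gives the percentage of members whose effect differed between the times. Glycolysis (0.06 and 0.33) and endoplasmic reticulum folding factors (0.03 and 0.35) lie near 0 at 24 h and high at 48 h, and cytosolic ribosomal proteins (0.09 and -0.19) are above 0 at 24 h and below it at 48 h.

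Markers of other cells that a spleen T cell culture or its partners could hold were read in all libraries, and their part in the results was not tested. The sums for B cells, dendritic cells, monocytes and fibroblasts, given above, were the highest. Epithelial markers summed to 8.88 to 9.16 CPM with the control partner and 7.04 to 8.05 CPM with the shFabp7 partner, with Sftpc and Elf3 at 0 in all 6 libraries. Of the 5 tested, Cdh1, E-cadherin, fell (1.74, 2.31 and 2.12 CPM with the control partner and 1.07, 1.103 and 1.55 CPM with the shFabp7 partner; -0.74 ± 0.19, chosen after its values were seen), and Epcam did not pass (-0.40 ± 0.17). Natural killer markers summed to 144 to 161 and 139 to 144 CPM, nearly all from Eomes, which T cells also express, and erythroid and platelet markers to 15.3 to 20.1 and 13.4 to 15.6 CPM. Endothelial markers summed to 96.8 to 105 and 87.6 to 95.2 CPM, mostly Pecam1 (-0.23 ± 0.06), which T cells express as well, with Emcn and Cldn5 at 0. Eng rose (0.29 ± 0.08), but lost its call with upper-quartile scaling (edgeR adjusted p = 0.0539) and without the control replicate 2 (edgeR adjusted p = 0.0523). Of the 12 T cell markers 5 were slightly lower, Cd8a (-0.23 ± 0.05) and Cd3g the most, and Cd4 had 574, 565 and 548 CPM with the control partner and 546, 574 and 565 CPM with the shFabp7 partner, which overlap.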

How the data were processed

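RNA sequencing of mouse spleen T cells gave whole-number counts per gene symbol, not normalized, which the authors deposited as 1 table of 53762 symbols and 12 libraries. The submitters' processing notes name build GRCm39 and the tools TopHat2 2.0.13, HTSeq 0.6.1p1 and CASAVA 1.8.2. Their order and settings, the annotation release and the strand mode are not given in the sources used here. Overlapping and antisense genes were therefore not separated. Groups came from the labels.

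Genes were kept by edgeR's filterByExpr (minimum count 10, total 15) and scaled by TMM. All 12 libraries entered 1 edgeR 4.0.16 quasi-likelihood fit (robust, 1 coefficient per group, R 4.3.3) with Benjamini-Hochberg adjustment over 16945 genes. Log2 fold changes are ± SE. Alternatives were DESeq2 1.42.0, RLE, upper-quartile and library-total scaling, no filter, a stricter one (1 CPM in 3 libraries and 100 counts), the 48 h libraries alone, a replicate block, a minimum fold of 1.2 (glmTreat) and each library left out. The procedure was also run on simulated counts with as many genes raised as lowered, and the outcome is not reported here. Such a balanced set does not test how the split between higher and lower depends on the scaling.

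The comparison, the 43 gene lists and 10 marker lists were chosen with earlier results of these data known, and list counts are descriptions. Named genes are, without predicted genes and receptor segments and with at least 1 CPM in a group and no overlap between groups, the 12 largest changes and 12 smallest p in each direction and the 12 most read with a log2 change of at least 0.5. From each list come up to 5 called members with the smallest p and 2 of the opposite direction, or the 2 most read, and for the interaction the 8 smallest p per direction; others are marked. Some genes that the rule selects are not described. The promoter windows are GRCm38.p6, not the build of the counts, and were matched by symbol (11315 of 16945 genes). Some members of the lists are counted but not reported here by name.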

Additional observations from a re-analysis of the deposited data

Results flagged for a closer look

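The partner effect differed between 48 h and 24 h, by a test of the difference itself, for 949 genes, and the 16 with the smallest p under the naming rule, 8 in each direction, are given here. With a larger value at 48 h were Selp (a difference of 1.804 between the log2 effects), Slc16a3 (1.02), Penk (0.98), Basp1 (0.85), Il12rb2 (0.79), Hsph1 (0.60), Vim (0.56) and Manf (0.51). Slc16a3 and Basp1 had estimates of opposite sign at 24 h (-0.46 ± 0.09 and -0.41 ± 0.08) and at 48 h (0.55 ± 0.07 and 0.44 ± 0.07).

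With a lower value at 48 h were Ccr9 (-0.81), Kcnc1 (-0.67), Whrn (-0.59), Ndufa6 (-0.53), Ptpn18 (-0.50), Lemd2 (-0.49), Snhg16 (-0.49) and Calcoco1 (-0.45). Ndufa6, a subunit of respiratory complex I, had 74.4, 78.8 and 85.3 CPM with the control partner and 57.95, 63.2 and 60.1 CPM with the shFabp7 partner (-0.40 ± 0.07), and its estimate at 24 h was 0.13 ± 0.07. Ptpn18, a phosphatase, differed by 0.10 ± 0.05 at 24 h and -0.40 ± 0.05 at 48 h, and Kcnc1, a potassium channel, by -0.06 ± 0.09 and -0.72 ± 0.09. Groups of 3 libraries were not tested for single outlying values.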

How the results depend on the processing

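The count of 5352 genes at 48 h stayed within 1.5 times itself in DESeq2 (5271), RLE (5386), upper-quartile (5320) and library-total scaling (5325), without a filter (5033), with the stricter one (5322) and in the 48 h libraries alone (5476), and between 4300 and 5454 without any 1 library. It fell to 1005 with a minimum fold of 1.2, by construction. The split did move: upper-quartile scaling gave 2125 higher and 3195 lower and library totals 2157 higher and 3168 lower, against 3380 and 1972. For the interaction they gave 341 and 356, and 446 and 275, against 750 and 199; without a filter it was 483 and 341. The 949 interaction calls became 13 with the minimum fold and between 564 and 1680 without 1 library; the most, 1680, were without the control replicate 1, and 588, 564, 589, 569 and 569 without the control replicates 2 and 3 and the shFabp7 replicates 1, 2 and 3. The cause was not tested. No pairing by replicate number was used. The deviations of same-numbered libraries correlated by -0.138, -0.00272 and -0.00834, and those of differently numbered ones by -0.177 to 0.177. With 3 libraries a group this cannot exclude that the numbers pair the samples. The replicate block gave 5195 genes at 48 h and 862 for the interaction. Of the 273 named genes that passed, 24 lost the call under a setting other than the minimum fold and 98 under it, and none changed direction. In the lowest of 5 classes by CPM, where 4.49% passed, depth limits what could be detected.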

Other observations

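Other gene families, grouped by symbol after the values had been seen and so given as description only, add to the lists. Of 20 nuclear pore genes 16 were higher with the shFabp7 partner and none lower (median log2 fold change 0.32, and 0.13 at 24 h), led by Nup188, Nup85 and Nup93. The RNA exosome, which trims and degrades RNA in the nucleus, had 7 of 9 genes higher, and the DEAD and DEAH box RNA helicases 33 of 51 higher and 3 lower. Of 15 Integrator genes 10 were higher and 1 lower, of 23 general transcription factor genes 14 were higher and none lower, and of 30 Mediator genes 15 were higher and none lower. The share of Mediator genes that were higher is little above that of the highest class. Among 79 mitochondrial ribosomal protein genes 51 were higher and 1 lower (median 0.21).

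Some families had more members lower than higher. Of 9 Gimap genes, GTPases of lymphocyte survival, 6 were lower and none higher, with the same median of -0.23 at both times. Of 8 genes with Gvin names, a family of very large interferon-inducible GTPases that are close paralogs, 6 were lower. The count includes pseudogenes: those with the smallest p were Gvin-ps7, Gvin-ps1, Gvin-ps6, Gvin2 and Gvin-ps3, of which Gvin2 alone is not named as a pseudogene. Zinc finger genes with Zfp names were lower in 61 of 357 cases and higher in 27, and predicted genes with Gm names in 201 and 62 of 2528, beside 11.6% lower and 19.9% higher over all genes tested. Of 74 T cell receptor V segments 1 was higher and 4 lower. The shares of Gm genes and of V segments that were lower are thus below that of all genes. Genes that rose had a median transcript length of 3249 bases and 50.3% GC and those that fell 3261 bases and 49.2%, against 2959 bases and 49.3% for all genes tested (GENCODE transcripts by symbol). In the 2 highest of the 5 classes by CPM the order for length was another: 3424 bases for those that rose and 3966 for those that fell, against 3687 for all genes there.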
